A study of Rattus norvegicus with 12 samples.

Results

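The comparison set the 6 arrays of experiment 2 against the 6 arrays of experiment 1, all 12 arrays of the series, paired within the 6 conditions that both experiments share. The cells were OLN cells, a rat oligodendroglial line, here a stable line that expresses alpha-synuclein. All 12 arrays come from cells with that transgene, the mock arrays included. The cells were grown for 24 h and then transfected with Fugene-6 and either an empty control vector (mock) or pcDNA3.1 with p25alpha, for 8, 12 or 16 h, so each experiment holds 1 mock and 1 p25alpha array per time. The labels do not say whether the arrays of an experiment came from separate dishes, nor how the experiments differed in handling. Each experiment is therefore 1 unit. The p-values below say that a difference recurred over 6 conditions, not that another experiment would show it, and the spread they measure may be technical.

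The lineage of the line can be read from its markers. Sox10, the transcription factor that specifies oligodendroglia, was called present on all 12 arrays with signals of 590.0 to 862 in experiment 1 and 344 to 418 in experiment 2. Olig1 was present on all 12 arrays as well, while Mbp, the myelin basic protein gene, was dim at 4.70 to 16.9 in experiment 1 and 11.2 to 33.0 in experiment 2 and was called present on 3 arrays of experiment 1 and 2 of experiment 2. Olig2 and Mobp had no tested probe set. Of 11 microglial and immune markers 1 was tested, Csf1r, and of 12 fibroblast and endothelial markers 3 were, none of them called different.

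Cultures of 1 line can differ between experiments in passage, density, medium or serum batch. Such states are known to move nutrient-sensing programmes, the cell cycle, cytoskeletal genes and genes of the aryl hydrocarbon receptor. Microarray signals also depend on the RNA. Labelling starts at the poly-A tail, so shorter RNA or shorter cDNA lowers signal at the 5′ end of a transcript more than at its 3′ end. Affymetrix arrays carry probe sets for the 3′ end, the middle and the 5′ end of a few genes for this reason.

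Signals of 9814 probe sets were called different between the experiments. Of 19248 probe sets with a present call on at least 2 of 12 arrays, 5650 were higher in experiment 2 (29.4% of those tested) and 4164 were lower (21.6%), 51% in all, at an adjusted p under 0.05 in limma with the condition as a block. At least 2-fold changes among the called were fewer, 1289 higher (6.7%) and 784 lower (4.07%). The 6 arrays of experiment 2 lay above all 6 of experiment 1 for 2979 probe sets (15.5%) and below them for 2585 (13.4%). By the brightest probe set of each of 9153 genes, 2139 genes were higher (23.4%) and 2516 lower (27.5%), and these are the shares against which the gene lists below are read. The median difference was 0.12 on the log2 scale over all probe sets and 0.025 after quantile normalization. All differences below are log2 signal in experiment 2 minus experiment 1.

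**Figure D1:**
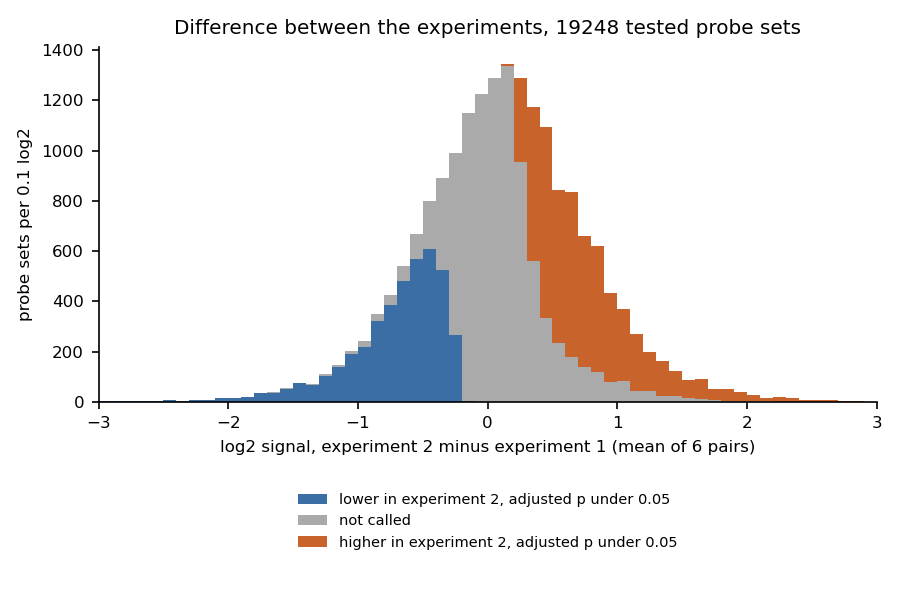
Number of probe sets (vertical axis) by log2 signal difference, experiment 2 minus experiment 1, mean of 6 pairs (horizontal axis), with called probe sets in colour and the rest in grey, stacked. The 5650 higher and 4164 lower probe sets flank a grey centre, and 6 probe sets below -3 and 7 above 3 lie outside the axis.

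The control ratios of the rat genes separated the experiments. The 3′ over 5′ ratio of beta-actin was 2.14, 2.40, 2.49, 2.45, 2.60 and 3.12 in experiment 1, in the order mock and p25alpha at 8 h, at 12 h and at 16 h, and 4.65, 4.74, 5.35, 5.60, 7.05 and 6.08 in experiment 2. No value of one experiment fell within the range of the other. The mean log2 difference was 1.13 ± 0.17 (SD, n = 6 pairs), with an exact sign-flip p of 0.03125, the smallest that 6 pairs allow, and an adjusted p of 0.0375 over 6 ratios. For hexokinase the ratio was 1.63 to 2.07 in experiment 1 and 2.48 to 3.64 in experiment 2, again without overlap, a difference of 0.68 ± 0.19 (SD, n = 6 pairs). GAPDH went the other way, with ratios of 0.969 to 1.09 in experiment 1 and 0.898 to 1.03 in experiment 2, a smaller difference of -0.13 ± 0.11 (SD, n = 6 pairs) that had the same sign in 6 of 6 pairs (exact adjusted p = 0.0375). The 3′ over middle ratios rose by 0.63 for beta-actin and 0.73 for hexokinase, each in 6 of 6 pairs (exact adjusted p = 0.0375), although the hexokinase middle probe set was called present on 0 arrays of experiment 2. The GAPDH 3′ over middle ratio differed by 0.064 ± 0.08 (SD, n = 6 pairs), with an exact adjusted p of 0.1875.

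Spiked RNAs that are not of rat origin were read as well, a choice made after the rat controls had been seen. The poly-A spikes dap, lys, phe and thr are in the standard protocol mixed with the RNA before labelling. Their 3′ over 5′ ratios were on average 0.46, 0.37, 0.33 and 0.48 higher in experiment 2 on the log2 scale, in 5, 3, 5 and 6 of 6 pairs. None passed after adjustment over the 8 spike ratios (exact adjusted p of 0.25, 0.625, 0.25 and 0.25). The hybridisation spikes bioB, bioC, bioD and cre are added after labelling. Their ratios differed by -0.048, 0.14, 0.019 and -0.029, and none passed either (lowest exact adjusted p = 0.3125). The percentage of probe sets called present was 51.7% to 55.1% in experiment 1 and 49.2% to 53.8% in experiment 2, lower in 6 of 6 pairs by 1.93 percentage points on average (± 1.13 SD, exact p = 0.0312).

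**Figure D2:**
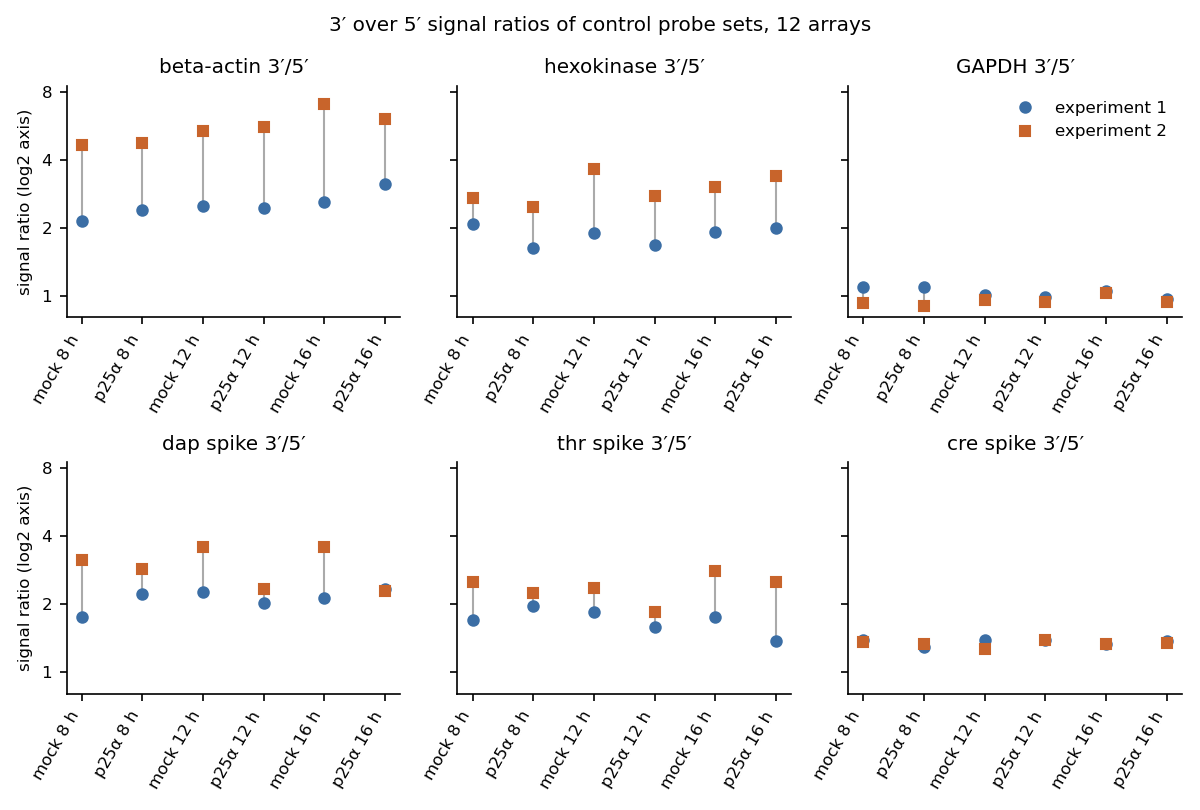
Ratio of 3′ over 5′ signal (vertical axis, log2 scale) on each of the 12 arrays by condition (horizontal axis), circles for experiment 1 and squares for experiment 2, joined within a condition. Beta-actin and hexokinase separate the experiments in all 6 conditions, GAPDH and the cre spike stay near their experiment 1 values, and dap and thr lie mostly higher in experiment 2.

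With the log2 actin ratio of each array as a covariate, limma called 0 probe sets (1237 at an unadjusted p under 0.05). The ratio and the experiment go together on every array, so culture state, RNA quality and labelling cannot be told apart as sources of the difference for the arrays as a whole. The probe sets of 1 gene allow a closer description. Among 2727 genes with several tested probe sets, 239 had all of them called higher, 291 had all called lower, 286 (10.5%) had probe sets called in opposite directions, 1368 had some called in 1 direction only, and 543 had none called. A difference that runs both ways within 1 gene cannot be read as the amount of 1 transcript alone and could be RNA quality, isoform use or probes that read another transcript, which was not tested. One shared by every probe set of a gene, as in 530 genes, could be culture state, but a transcript whose probe sets all lie far from the 3′ end could show it too, and probe positions were not analysed here.

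App, the amyloid precursor protein gene, had 5 tested probe sets. The pair of brightest ones differed by 0.13 and -0.25 and were not called, 1 fell by 1.95 (adjusted p = 0.00021) and 2 dim ones were higher, by 0.88 and 1.90. Caprin1, an RNA-binding protein of stress granules, spanned -1.38 to 1.86 over 4 probe sets, with the brightest at 0.11 and not called. Asap1, an Arf GTPase-activating protein, spanned -1.65 to 1.83 over 7, of which 3 were called. Zeb2, a transcription factor needed for myelination, spanned -2.65 to 1.45 over 5. Tpm1, a tropomyosin, had 10 tested probe sets of which 3 were lower and 5 higher, from -0.999 to 1.57. Genes with a uniform change included Gria2, an AMPA receptor subunit, with 5 of 5 probe sets higher by 0.85 to 1.72. Fzr1, an activator of the anaphase-promoting complex, was lower on 3 of 3, from -1.41 to -1.28, and Kif21a, a kinesin, and Ogt, the O-GlcNAc transferase, were higher on both of theirs. The genes of this paragraph were picked by the size of their differences and serve as a description.

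**Figure D3:**
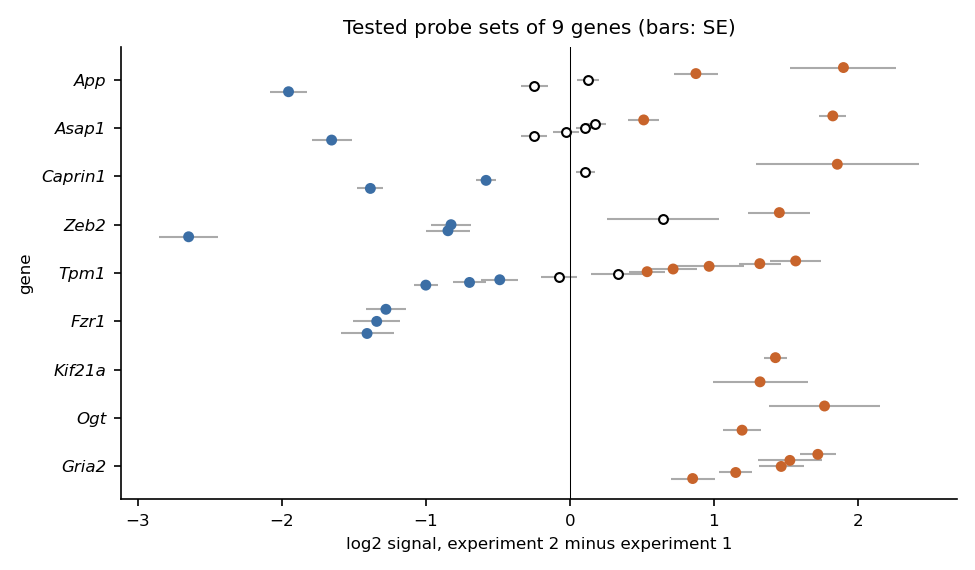
Log2 difference, experiment 2 minus experiment 1 (horizontal axis), of every tested probe set of 9 genes (vertical axis), with bars for the SE and filled symbols for adjusted p under 0.05. App, Asap1, Caprin1, Zeb2 and Tpm1 have called probe sets on both sides of 0, whereas those of Fzr1, Kif21a, Ogt and Gria2 lie on 1 side.

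The classes of probe set that moved were uneven. In the dimmest 20% by mean log2 signal the median difference was 0.56, with 30.9% higher and 4.29% lower, while the medians of the other 4 classes of this size lay between -0.029 and 0.17. Probe sets without a single gene symbol were higher in 39.3% and lower in 11.02% of 6228 cases, against 24.6% and 26.7% of those with 1 symbol. Genes of long genomic span were more often higher. In the shortest 20%, up to 8.1 kb, 14.2% were higher and 39.4% lower, and in the longest 20%, from 69.0 kb, 37.2% were higher and 14.7% lower. The rank correlation of span and difference was 0.249 over 8217 genes, given as a description, since genes share arrays.

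Both genes of the aryl hydrocarbon receptor that the naming rule selected stood out. Cyp1a1 and Cyp1b1 encode cytochrome P450 enzymes that oxidise polycyclic hydrocarbons, and both are classic targets of this ligand-activated transcription factor, which with its partner Arnt binds a short core motif in DNA. The promoter of Cyp1a1 is not shown. Promoters of 3 of 5 pathway genes looked up were found in RefSeq and are given here. Each runs from 250 bases before to 50 bases after the start of the gene (assembly GRCr8), and capitals mark the core GCGTG or its reverse complement CACGC.
Cyp1b1, chr6:21094315-21094614, plus strand: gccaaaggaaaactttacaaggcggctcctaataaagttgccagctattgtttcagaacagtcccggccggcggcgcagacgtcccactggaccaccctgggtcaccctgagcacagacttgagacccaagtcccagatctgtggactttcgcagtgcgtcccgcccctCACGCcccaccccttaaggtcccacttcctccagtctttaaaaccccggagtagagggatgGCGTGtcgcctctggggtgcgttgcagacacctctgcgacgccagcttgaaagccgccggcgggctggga
Tiparp, chr2:152063519-152063818, plus strand: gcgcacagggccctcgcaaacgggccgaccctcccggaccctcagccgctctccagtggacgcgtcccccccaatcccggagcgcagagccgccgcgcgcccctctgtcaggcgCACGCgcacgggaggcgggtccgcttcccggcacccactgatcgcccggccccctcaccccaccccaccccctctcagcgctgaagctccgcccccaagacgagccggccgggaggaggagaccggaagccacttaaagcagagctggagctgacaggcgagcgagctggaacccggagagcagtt
Nqo1, chr19:52220218-52220517, minus strand: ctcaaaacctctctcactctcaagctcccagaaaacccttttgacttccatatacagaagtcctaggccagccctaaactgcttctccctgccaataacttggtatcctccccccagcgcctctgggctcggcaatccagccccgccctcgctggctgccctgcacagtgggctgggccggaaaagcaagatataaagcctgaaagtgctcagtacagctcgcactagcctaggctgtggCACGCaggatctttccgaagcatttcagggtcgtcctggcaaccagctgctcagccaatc
The motif occurs 2 times in the window of Cyp1b1 and once in each of the others. On either strand it is found in 29.7% of 33469 promoters of this length and a match is a description of these letters.

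Cyp1a1 was called absent on all 6 arrays of experiment 1, with signals of 19.3, 5.80, 2.70, 13.2, 2.60 and 0.900 (mock and p25alpha at 8, 12 and 16 h in turn), and present on all 6 of experiment 2, with 194, 185, 83.8, 90.0, 52.8 and 75.8. The groups did not overlap, and the signal was at least 16.7-fold higher in experiment 2 (fitted log2 difference 4.47 ± 0.45 (SE), adjusted p = 0.000482). The bound sets the mean of the bright arrays against dim arrays taken either at the gene's own signal or at that array's lowest signal with a present call, whichever is higher, so it rests on signals called absent. Cyp1b1 gave 482, 294, 248, 212, 249 and 228 in experiment 1 and 1601, 1363, 1057, 1053, 1099 and 1027 in experiment 2, 4.31-fold higher (log2 2.11 ± 0.092 (SE), adjusted p = 0.000131). Within each experiment the mock array at 8 h was the highest of the 6 for both genes. Other genes of the pathway were added after these had been seen. Tiparp, a poly-ADP-ribose polymerase that dampens the receptor, lay between 222 and 374 (median 255.8) in experiment 1 and between 353 and 533 (median 443) in experiment 2, higher by 0.68 (adjusted p = 0.000848), and its other probe set was higher by 0.90. Nqo1, a quinone reductase that answers to both this receptor and Nrf2, was higher by 0.34 (adjusted p = 0.0047) on signals of 4472 to 5634 in experiment 1 and 5720 to 7324 in experiment 2. Aldh3a1, an aldehyde dehydrogenase, was dim, present on 0 arrays of experiment 1 and 2 of experiment 2. It was 1.80-fold higher in the fit (log2 0.85), which rests mostly on signals called absent. The receptor gene Ahr itself was lower by 0.52 (adjusted p = 0.0255). Arnt differed by -0.68, with an adjusted p of 0.161.

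**Figure D4:**
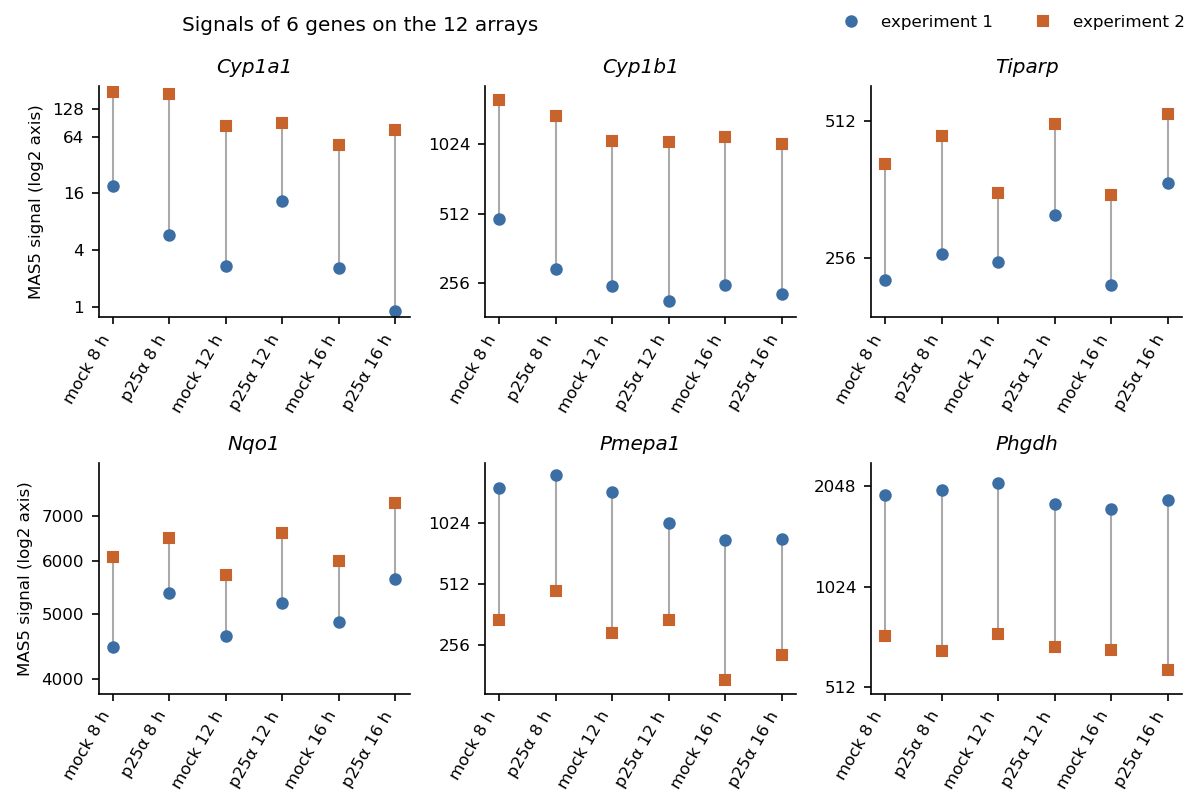
MAS5 signal (vertical axis, log2 scale, range set per panel) of Cyp1a1, Cyp1b1, Tiparp, Nqo1, Pmepa1 and Phgdh on each of the 12 arrays by condition (horizontal axis), circles for experiment 1 and squares for experiment 2, joined within a condition. In each of the 6 conditions the first 4 genes are higher and the last 2 lower in experiment 2.

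The 12 probe sets with the largest rises under the naming rule were chosen by the size of the change, and for most genes with several probe sets they were not the brightest. Of the 12 genes, 4 had 1 tested probe set. Of the 8 with several, the named one was the brightest for 1, the brightest was called higher for 2 and was not called for 5. Besides Cyp1b1, the genes with 1 probe set were Hist2h2be, a histone H2B, RGD1304748 and RGD1564965, higher by 1.66, 1.90 and 1.65. Cttnbp2, a cortactin-binding protein, was higher by 1.80 on its brightest probe set, with signals of 227 to 296 in experiment 1 and 727 to 1098 in experiment 2. Rbm39, a splicing factor, and Cep295 of the centriole were higher by 1.67 and 1.76 on the named probe sets and by 0.47 and 0.69 on the brightest, and all tested probe sets of both were called higher. In the other 5 genes the named probe set was dim and the brightest was not called. Alk, a receptor tyrosine kinase of the developing nervous system, lay between 23.1 and 51.4 (median 36.2) in experiment 1 and between 86.1 and 178 (median 150.5) in experiment 2 on the named one, 3.94-fold higher, while its brighter probe set differed by 0.21 (adjusted p = 0.156). Lmo7, a LIM-domain protein of cell junctions, lay at 23.7 to 45.4 in experiment 1 and 93.5 to 127 in experiment 2, 3.56-fold higher, against a difference of 0.055 on its brighter one (adjusted p = 0.592). Epb41l2, a membrane skeleton protein, and Igf2r, the receptor that carries mannose-6-phosphate proteins to lysosomes, were higher by 1.82 and 1.72 on dim probe sets and differed by 0.21 and 0.21 on the brightest, and a further probe set of Igf2r was called higher by 0.94. Atp2b1, a calcium pump of the plasma membrane, had 5 tested probe sets, 3 of them called higher by up to 1.63, 1 called lower at -0.58 and the brightest not called at 0.16. The naming rule had picked the 12 named probe sets for large called changes of the same sign in 6 of 6 pairs. That they did not overlap between the experiments, with adjusted p-values of 0.00252 or less in limma, therefore adds no support. Of all tested probe sets 15.5% lay higher without overlap. The 5 genes whose brightest probe set was not called are not read here as having risen.

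Of 11 genes named for the largest falls, 3 had 1 tested probe set. Of the 8 with several, the brightest was called lower for 6, each by less than the named one, and was not called for 2. Among genes with 1 probe set, Pmepa1, a target and inhibitor of TGF-beta signalling, lay between 848 and 1769 (median 1238) in experiment 1 and between 172 and 470.2 (median 316) in experiment 2, 4.08-fold lower. Timm17b of the mitochondrial import channel and Selenow, a small selenoprotein, gave differences of -2.24 and -2.02. Zfp771, a zinc finger protein, Ppp2r1a, the scaffold of protein phosphatase 2A, and Rab11b of recycling endosomes gave -2.18, -2.06 and -2.08 on the named probe sets and -1.43, -1.37 and -1.08 on the brightest. The gap was wider for Nolc1 of the nucleolus and MGC105830, with -2.03 and -2.50 on the named and -0.68 and -0.45 on the brightest. Eif3c, a subunit of a translation initiation factor, lay at 1254 to 1653 in experiment 1 and 294 to 432 in experiment 2 on the named one, 4.17-fold lower, but fell by only 0.44 on the brighter one. Cadm4, an adhesion molecule of myelinating glia, and Lasp1, an actin-binding protein, gave -2.24 and -2.13 on dim probe sets and -0.077 and -0.12 on the bright ones, which were not called (adjusted p = 0.384 and 0.157). All 11 named probe sets were lower in 6 of 6 pairs, which the naming rule required, and did not overlap between the experiments. As they were picked for large falls, this adds no support. Of all tested probe sets 13.4% lay lower without overlap.

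Calls of presence changed unevenly. Present on 6 of 6 arrays of experiment 2 and on 0 of experiment 1 were 15 probe sets (0.0779%), against 136 (0.707%) the other way round. After Cyp1a1, the brightest named probe sets of the first kind included those of Ammecr1l, LOC299907 and Dock10, a guanine nucleotide exchange factor. Those of Ppp2r2a, a regulatory subunit of protein phosphatase 2A, and Maml3, a Notch coactivator, followed. The highest signals of all of these lay between 59.6 and 89.1. They were 1.95 to 4.60-fold higher in the fit, and that of Ppp2r2a was at least 4.31-fold higher. Ammecr1l, LOC299907 and Ppp2r2a also had a brighter probe set that was present on all 12 arrays, with differences of 0.20 and -0.23 (not called) and 0.32 (adjusted p = 0.0129), so these genes were not present in experiment 2 alone. The second kind was brighter. Fkbp8, a mitochondrial anchor of Bcl-2, lay at 175 to 366 in experiment 1 and 41.8 to 92.9 in experiment 2, 3.87-fold lower in the fit. Probe sets of Trabd, Tom1, an endosomal sorting adaptor, Nfic, a transcription factor, and C1qtnf5 were 2.08, 1.998, 1.90 and 1.62-fold lower in the fit. A dimmer one of Tom1 was present on all 12 arrays with a difference of 0.26 (not called).

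Of 35 gene lists, with 629 tested members, the amino acid response had the largest share of tested members called in 1 direction. A share near the 23.4% higher or 27.5% lower of all genes is no result about a list. When amino acids run short or the endoplasmic reticulum is stressed, the kinases GCN2 and PERK raise translation of ATF4, which induces amino acid synthesis, transport and tRNA charging. Of 26 tested members 17 fell (65.4%, against 27.5% of all genes), 1 rose and 8 did not pass, with a median of -0.62 against 0.005 over all genes. Phgdh, the first enzyme of serine synthesis, was 2.84-fold lower on signals of 1927, 1992, 2091, 1813, 1750 and 1862 in experiment 1 and 727, 656, 738, 674, 663 and 576 in experiment 2 (log2 -1.51 ± 0.073 (SE), adjusted p = 0.000134). Shmt2, the mitochondrial serine hydroxymethyltransferase, lay at 1189 to 1570 in experiment 1 and 514 to 705 in experiment 2, a difference of -1.11. Trib3, a pseudokinase that restrains ATF4, and Cebpb, its partner factor, gave differences of -1.29 and -1.31. Atf4 itself was lower by 1.02 (adjusted p = 0.000383), and Psat1, another enzyme of serine synthesis, was the 1 member to rise, by 0.30, both named after their values were seen. The count of members lower was 9 in the mock arrays alone and 15 when the probe sets of each gene were averaged. Of 9 members with several tested probe sets, 2 had all of them lower and 2 had them in opposite directions.

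Chaperones of the endoplasmic reticulum went the opposite way. They fold secreted proteins and are induced by the unfolded protein response. Of 20 tested members 8 rose (40%, against 23.4% of all genes), 1 fell and 11 did not pass, with a median of 0.25. Pdia4, a disulfide isomerase, rose 1.91-fold (adjusted p = 0.00105) on signals of 409.8 to 913 in experiment 1 and 782 to 1342 in experiment 2, whose ranges overlapped. Hyou1, a nucleotide exchange factor, rose by 0.68 with overlap, and Hsp90b1, the HSP90 of the reticulum, rose by 0.57 on signals of 3564 to 4358 in experiment 1 and 5378 to 6459 in experiment 2 without overlap. Dnajb9, a cochaperone of BiP, rose by 0.49. Hspa5, which encodes BiP, rose by 0.44, and Xbp1, a transcription factor of the response, was the 1 to fall, with -0.21, both named after their values were seen. The count was 1 in the mock arrays alone and 1 in the p25alpha arrays alone, and it reached 13 with an offset of 50 or with a trended and robust prior.

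Genes of actin fibres and contraction fell or were not called. Of 13 tested members of the actin list 7 fell (53.8%, against 27.5% of all genes) and 0 rose, with a median of -0.61. Zyx, a focal adhesion protein, was 1.97-fold lower at 241 to 379 in experiment 1 and 108 to 173 in experiment 2 (adjusted p = 0.0016). Tpm4, a tropomyosin, and Cald1, caldesmon, gave differences of -0.80 and -0.72, both without overlap. Tagln, transgelin, gave -2.31 in the fit but lay at 11.7 to 23.6 in experiment 1 and 1.20 to 13.2 in experiment 2, and its 6 arrays of experiment 2 were all called absent (at least 2.97-fold lower). Actb, beta-actin, differed by 0.26 on its brighter probe set, with an adjusted p of 0.0607. The actin 3′ over 5′ ratio moved with these genes, and Tpm1 in the list is the gene whose probe sets ran both ways. Its part in the falls was not tested.

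Cytokine genes and their regulators fell more often than they rose. Of 14 tested cytokine and NF-kB genes 6 fell (42.9%, against 27.5% of all genes), 1 rose and 7 did not pass, with a median of -0.42. Icam1, an adhesion receptor for leukocytes, lay at 65.7 to 127 in experiment 1 and 33.4 to 59.8 in experiment 2, a difference of -0.999. Ccl2, a monocyte chemokine, and Cxcl1, a neutrophil chemokine, gave -0.93 and -0.91, and Nfkb2, an NF-kB subunit, -0.86. Il6 was the 1 member to rise, by 0.36. Without the condition as a block the count of members lower was 2. Among immediate early genes, 6 of 25 fell (24%, close to the 27.5% of all genes) and 2 rose (8%). Fosl1, a subunit of AP-1, was at -1.36, Dusp5, a phosphatase of ERK, at -0.82 and Ier3 at -0.77. TGF-beta and BMP genes split, with 4 of 20 higher (20%) and 6 lower (30%), both close to the shares of all genes. Besides Pmepa1, Tgfb1, the ligand, lay at 117 to 251 in experiment 1 and 38.1 to 74.5 in experiment 2, 3.14-fold lower in the fit. It was absent on all 6 arrays of experiment 2. Fst, follistatin, was lower by 1.02, and Id2, an inhibitor of differentiation factors, was higher by 0.81.

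**Figure D5:**
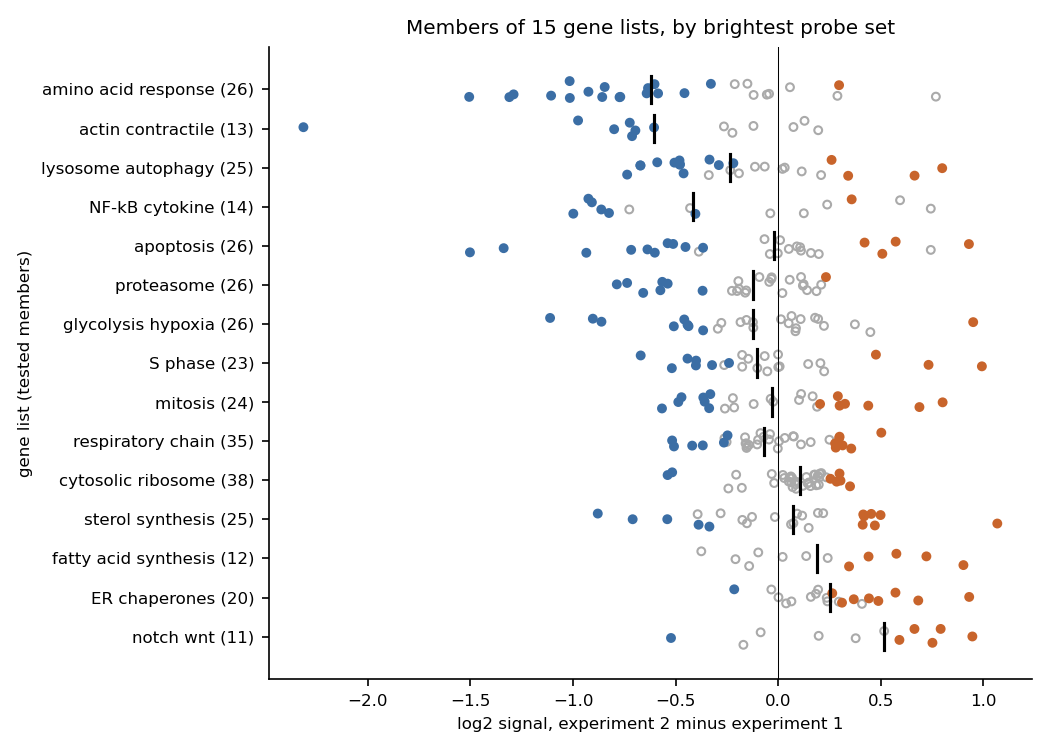
Log2 difference, experiment 2 minus experiment 1 (horizontal axis), of each tested member of 15 gene lists (vertical axis, number of tested members in brackets), filled where adjusted p was under 0.05, with a bar at the list's median. The amino acid response and the actin list sit to the left with medians of -0.62 and -0.61, while the ribosome list is narrow around 0.11.

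Genes of cell death were more often lower than higher. Of 26 tested apoptosis genes 10 fell (38.5%, against 27.5% of all genes) and 4 rose (15.4%, against 23.4%). The median difference of the list was -0.02, so it did not shift as a whole. Fadd, the adaptor of death receptors, was absent on all 6 arrays of experiment 2 and 2.83-fold lower there in the fit. Bid and Bax are death-promoting members of the Bcl-2 family. Bid, absent on the same arrays, was at least 2.45-fold lower, and Bax was lower by 0.94. Faslg, the Fas ligand, was dim and higher by 0.93.

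Cell cycle genes were called in both directions. S-phase genes rose in 3 (13.0%) and fell in 7 (30.4%) of 23. Mitotic genes rose in 7 (29.2%) and fell in 7 (29.2%) of 24. Mcm10, a replication initiation factor, was higher by 0.73 and Mcm2, a subunit of the replicative helicase, was lower by 0.67. Top2a, a topoisomerase, was higher by 0.69 and 0.68 on its brighter probe sets and lower by 0.53 on the dimmest (adjusted p = 0.0115). Of 7 mitotic genes with several tested probe sets, 2 had them called in opposite directions. Cenpe, a mitotic kinesin, was higher by 0.80, and Plk1, a mitotic kinase, and Birc5, survivin, gave differences of -0.57 and -0.49. Opposite calls within 1 programme also marked the splicing genes. Of 26 tested 11 rose (42.3%, against 23.4% of all genes) and 7 fell (26.9%, against 27.5%). The kinases Clk4 and Clk1 were higher by 1.05 and 0.95, and the splicing factors U2af2 and Ptbp1 gave differences of -1.03 and -0.92.

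Lysosome and autophagy genes fell more often than they rose. Of 25 lysosome and autophagy genes 12 fell (48%, against 27.5% of all genes) and 4 rose. Ctsd, cathepsin D, lay between 992 and 1216 (median 1119) in experiment 1 and between 555 and 847 (median 695) in experiment 2, a difference of -0.67. Sqstm1, the autophagy receptor p62, gave -0.74 on its brightest probe set and -1.75 on another, while a dim one was called higher by 0.80 (adjusted p = 0.0447). Atp6v0d1, a subunit of the proton pump, gave a difference of -0.67, and Ulk1, the kinase that starts autophagy, was higher by 0.80. Proteasome genes fell in 7 of 26 (26.9%, close to the share of all genes) and rose in 1, with Psmc4, Psmb7, Psmc3 and Psmd3 at -0.79, -0.74, -0.66 and -0.57. Glycolysis and hypoxia genes fell in 8 of 26 (30.8%, also close to it) and rose in 1. Gpi, glucose-6-phosphate isomerase, was 2.16-fold lower at 1562 to 2196 in experiment 1 and 724 to 1049 in experiment 2, and Hk1, hexokinase 1, and Adm, adrenomedullin, gave differences of -0.90 and -0.86. The 1 member to rise, Ndrg1, was dim. Oxidative stress genes split, with 8 of 22 lower (36.4%) and 5 higher (22.7%, against 23.4% of all genes). Srxn1, sulfiredoxin, was at -0.94, the pentose phosphate enzymes Tkt and Pgd at -0.82 and -0.77 and Gsta4, a glutathione transferase, at 0.76.

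Lipid, signalling and housekeeping lists were mixed. Of all genes 23.4% were higher and 27.5% lower. Fatty acid genes rose in 5 of 12 (41.7%) and fell in 0. Scd, a desaturase, was at 0.90, Fads1 at 0.72, Acsl3 at 0.58 and Acly, which makes cytosolic acetyl-CoA, at 0.44. Sterol genes rose in 7 (28%) and fell in 5 (20%) of 25. The synthesis enzymes Mvk, Fdft1 and Mvd gave differences of -0.88, -0.71 and -0.54. Notch and Wnt genes rose in 5 (45.5%) and fell in 1 (9.09%) of 11. Fzd1, a Wnt receptor, was 1.93-fold higher at 133 to 238 in experiment 1 and 274 to 456 in experiment 2, while Notch1 and Hes1, its target, were higher by 0.75 and 0.66 at low signals. Of the lists with over 10 tested members, the cytosolic ribosome had the smallest share called, with 5 of 38 higher (13.2%) and 2 lower (5.26%). Rps6 and Rpl37 were at 0.30 and 0.35 and Rpl28 and Rpl13 at -0.54 and -0.52. A dimmer probe set of Rps6 was called lower, at -0.50 (adjusted p = 0.00144). Genes of the respiratory chain rose in 7 (20%) and fell in 6 (17.1%) of 35.

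Myelin and glial genes differed between the experiments as well. Among 13 tested oligodendrocyte genes 2 rose (15.4%) and 3 fell (23.1%), against 23.4% and 27.5% of all genes. Sox10 and the deacetylase Sirt2 gave differences of -0.85 and -0.80, both without overlap. Of 6 tested astrocyte markers 3 fell, Gfap, S100b and Glul, with differences of -0.85, -0.71 and -0.66, and Gja1, connexin 43, rose by 0.95. S100b, also a gene of oligodendroglia, was the brightest of these at 2744 to 3021 in experiment 1 and 1643 to 1850 in experiment 2. The summed signal of the astrocyte markers was 3300 to 3625 in experiment 1 and 2114 to 2365 in experiment 2, and the part of other cell types in these differences was not tested. Ngfr, the low-affinity neurotrophin receptor, was 2.73-fold lower, and Pmp22, a peripheral myelin protein that is bright in this line, was higher by 0.57.

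Of 10 tested neuronal markers 4 rose (40%, against 23.4% of all genes) and 0 fell, with a median of 0.77. Their summed signal was 856 to 1021 in experiment 1 and 1255 to 1697 in experiment 2. The members named below make up little of this sum, which is carried by brighter members not named here. Snap25, a synaptic fusion protein, lay at 25.9 to 53.1 in experiment 1 and 46.7 to 88.2 in experiment 2 and rose by 0.90, and Nefl, a neurofilament, lay at 3.10 to 10.2 in experiment 1 and 9.10 to 18.8 in experiment 2 and rose by 0.84. Tubb3 and Rbfox3, dim and called present on 1 and 3 arrays of each experiment, differed by 1.01 and 0.97 with adjusted p-values of 0.083 and 0.226. Above the median signal only 2 markers were called. Dim probe sets of all kinds were more often higher than lower. In the dimmest class by mean log2 signal the median difference was 0.56, with 30.9% higher and 4.29% lower. The part of this general shift in the rise of the dim markers was not tested. In RNA from whole cultures, more cells of a type and more RNA per cell cannot be told apart.

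Uchl1 and Park7, genes linked to Parkinson's disease, were lower in experiment 2, and Pink1, another such gene, had probe sets called in opposite directions. Uchl1, a deubiquitinase, lay at 975 to 1173 in experiment 1 and 484 to 591 in experiment 2, a difference of -0.96. Park7, DJ-1, and Pink1, a mitochondrial kinase, gave differences of -0.35 and -0.57. No tested probe set is named Tppp, the gene of p25alpha, so the transfected gene was not read.

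The response to p25alpha was compared between the experiments. Each experiment has its own mock arrays, and the 3 times serve as replicates. No probe set passed the test that the p25alpha minus mock difference itself differs between the experiments (limma interaction, 0 of 19248, or 0%, and 770 at an unadjusted p under 0.05). With 3 pairs of arrays in each experiment this test has little power, and a p above the threshold does not show that the responses were alike. The p25alpha minus mock difference of Cxcl1 was 3.38 ± 0.60 (SD over 3 times) in experiment 1 and 2.93 ± 0.12 in experiment 2 on the log2 scale. For Il6 it was 2.35 ± 0.73 (SD over 3 times) in experiment 1 and 2.46 ± 0.46 in experiment 2, and for Egr1, an immediate early transcription factor, 2.41 ± 0.71 (SD over 3 times) in experiment 1 and 2.27 ± 0.16 in experiment 2. For Gadd45b, a stress gene, it was 1.89 ± 0.53 (SD over 3 times) in experiment 1 and 1.99 ± 0.66 in experiment 2. Myc gave 0.97 ± 0.53 (SD over 3 times) in experiment 1 and 1.17 ± 0.49 in experiment 2, and Nfkbia, the inhibitor of NF-kB, gave 1.41 ± 0.059 (SD over 3 times) in experiment 1 and 1.63 ± 0.46 in experiment 2. Mcm6, a helicase subunit, was lower with p25alpha, with differences of -0.67 ± 0.26 (SD over 3 times) in experiment 1 and -0.57 ± 0.33 in experiment 2. These 7 genes had the same sign at all 3 times in both experiments.

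Ccl2 shows how the baseline enters. Its mock signals at 8, 12 and 16 h were 881, 925 and 1185 in experiment 1 and 363, 392 and 486 in experiment 2. Its p25alpha signals were 4198, 4355 and 3814 in experiment 1 and 2394, 3557 and 2441 in experiment 2, so all mock and p25alpha arrays of experiment 2 lay below their partners in experiment 1. The p25alpha minus mock difference was 2.06 ± 0.32 (SD over 3 times) in experiment 1 and 2.74 ± 0.43 in experiment 2. The interaction was 0.69, with a p of 0.00952 in limma before adjustment and an adjusted p of 1. The interactions with the smallest p-values, LOC313934, Arhgef7, Clec11a and Wnt5a, did not pass (lowest adjusted p = 0.676) and were dim, with highest signals of 10.2, 43.8, 30.6 and 14.7.

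Whether the difference between the experiments changed with time was tested with a moderated F-test, which called 0 of 19248 probe sets (0%, and 1447 at an unadjusted p under 0.05). With 2 pairs at each time this test has little power, and the 0 does not show that the difference was constant. The 4 with the smallest p were Rest, a repressor of neuronal genes, RGD1564192, Runx1, a transcription factor, and Pdlim5, with adjusted p-values of 0.391, 0.391, 0.527 and 0.57, none of them called present on more than 2 arrays of experiment 1.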

How the data were processed

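RNA of 12 samples was read on 12 Affymetrix rat arrays. Per the submitters' processing notes the values are MAS5 output. The deposited table gives signal intensity on a linear scale with a detection call, and the 2% trimmed mean was 150.1 on every array, so the authors had scaled them. The deposited log2 signal ratios between arrays were not used, and a second deposited table held the same signals rounded (largest difference 0.5). Versions and the probe algorithm's settings are not given in the sources used here.

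Of 31096 probe sets, 57 controls were left out of the tests and 3 were not analysed here. Tests ran on the 19248 (61.9%) with 2 or more present calls among 12 arrays. Signals below 0.1 were set to 0.1 (16 values) and log2 transformed. Names came from the files, updated through RefSeq (GRCr8), and 20182 probe sets had 1 symbol, 347 several and 10567 none. In the gene lists a gene was read by its brightest tested probe set. The largest rises and falls and the genes present in 1 experiment are single probe sets chosen by size or brightness, often not the brightest of the gene.

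limma 3.58.1 in R 4.3.3 (lmFit, eBayes) fitted experiment 2 minus experiment 1 with the 6 conditions as blocks, and the interactions with p25alpha and time. P-values were adjusted by Benjamini-Hochberg over all tested probe sets, at 0.05. Every adjusted p for a gene is from limma. The pairing comes from the shared conditions in the labels, and deviations of same-condition arrays correlated by 0.02 to 0.09. Control ratios and present calls were tested by an exact two-sided sign-flip permutation over 6 pairs. The number of arrays limits the precision. The scripts were tested on simulated data.

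The members and the gene lists were chosen with earlier results of these data known. Named are the 12 largest rises and the 12 largest falls among called probe sets with 1 symbol, the same sign in 6 of 6 pairs, above the median signal and present on all 6 arrays of the brighter experiment, up to 4 members of each list by size, the brightest genes present in 1 experiment only, the 4 smallest p of each interaction test, and genes of the p25alpha response. Some results of this rule and 1 gene list are not reported here. Gapdh and Arfgap3 had no tested probe set with a single symbol. The spike ratios, the classes of probe set and the further receptor genes were added after seeing the data. Alternatives were no block, 2 normalizations, 2 filters, an offset of 50, a trended and robust prior, the actin ratio as a covariate, mock or p25alpha arrays alone, each condition left out, and other ways to read a gene.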

Additional observations from a re-analysis of the deposited data

Results flagged for a closer look

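Of 312 sets of 6 arrays checked, 17 held an array that stood apart from the others by Dixon's test, where chance alone flags about 1 in 20 (16 expected). Among the control ratios, 3′ over 5′ of the spike lys was highest at 3.25 on the 16 h mock array of experiment 2, that of phe at 2.46 on the 8 h p25alpha array of experiment 1 and that of bioB at 1.60 on the 8 h mock array of experiment 2, and that of bioD was lowest at 1.04 on the 16 h p25alpha array of experiment 1. On the 8 h mock array of experiment 1, Actb was highest of its experiment with a signal of 5447, and Igf2r, Tubb3 and Rpl28 were lowest with 20.9, 2.70 and 5217. Ppp2r2a was lowest at 2.10 and Rpl13 highest at 5697 on the 16 h mock array of experiment 1, and Notch3 was lowest at 3.40 on its 12 h mock array. In experiment 2, Actb and Atp6v0d1 were highest on the 16 h p25alpha array with 5812 and 659, and Timm17b was lowest at 8.10 on the 8 h p25alpha array. Lasp1 and Bid were lowest on the 16 h mock array of experiment 2 with 24.6 and 2.40, and Nfkb2 on the 8 h mock array with 42.1.

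Clec11a, a growth factor, and Wnt5a, a Wnt ligand, had p25alpha minus mock differences that were below 0 at all 3 times in experiment 1 and above 0 at all 3 in experiment 2. The interactions were 1.56 and 1.07 on the log2 scale, with limma p-values of 0.000455 and 0.000531 before adjustment, and neither passed after it. Both genes were dim.

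A control probe set for 5S ribosomal RNA, left out of the tests, was brighter with p25alpha than with mock in all 6 pairs. The ratio was 1.73, 4.93 and 8.70 at 8, 12 and 16 h in experiment 1 and 3.65, 11.5 and 4.75 in experiment 2. The source of this difference was not tested.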

How the results depend on the processing

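The counts over all probe sets kept within 1.5 times of the main values (5650 higher and 4164 lower) under most settings. Without the replicate block, that is with the conditions not paired, they were 5719 and 4212, with quantile normalization 4755 and 4485, with median centring 5910 and 3903, without the filter 5317 and 3442, with an offset of 50 6225 and 4688, and with a trended and robust prior 6073 and 4597. Leaving out 1 condition at a time gave 4870 to 5150 higher and 3644 to 3741 lower. Tests on the 3 mock pairs gave 1795 higher and 1549 lower, those on the 3 p25alpha pairs 1867 and 1356, where fewer samples enter, and probe sets above the median signal gave 3168 higher, where fewer are tested. With the actin ratio as a covariate 0 were called either way, and so were the list counts: amino acid response lower 0, reticulum chaperones higher 0, actin list lower 0, cytokine and NF-kB lower 0 and neuronal markers higher 0. Among the 135 called probe sets named for their experiment difference, 106 kept their sign in that fit and 29 reversed without passing, the cause not tested, with log2 values of Lasp1 0.094, Ammecr1l -1.78, LOC299907 -0.48, Dock10 -1.64, Ppp2r2a -3.62, Maml3 -1.28, Ccl2 0.0015, Myc 0.049, Aldh3a1 -0.17, Scd -0.83, Acsl3 -0.51, Acly -0.28, Cebpb 0.89, Hyou1 -0.37, Bst2 -0.34, Mx1 -3.66, Mcm2 0.082, Cenpe -0.021, Tpm4 0.16, Cald1 0.10, Fzd1 -0.13, Notch1 -0.036, Snap25 -1.21, Glul 0.066, Npas2 -1.46, Per2 -0.074, Ulk1 -0.57, Bid 2.28 and Bax 0.24. The amino acid count (17) was 9 in the mock arrays and 2 where all of several probe sets had to be called the same way. The chaperone count (8) was 13 with an offset of 50, 13 with a trended and robust prior, and 1 in the mock arrays, in the p25alpha arrays and where all probe sets had to move the same way. The actin count (7) and the cytokine count (6) were 0 by that last setting. The cytokine count was 2 without the block and 3 in the mock and 3 in the p25alpha arrays. The neuronal count (4) was 2 above the median signal, 2 in the mock arrays and 0 where all probe sets had to move the same way. Leaving out 1 condition gave 16 to 17, 6 to 8, 7 to 7, 5 to 6 and 4 to 6 for these 5 lists. The actin 3′ over 5′ difference ran from 1.07 to 1.17 and its 3′ over middle difference from 0.60 to 0.67, those of GAPDH from -0.15 to -0.095 and from 0.046 to 0.086, and those of hexokinase from 0.63 to 0.74 and from 0.58 to 0.83. Over tested probe sets the present calls were 2.95 percentage points fewer in experiment 2 (-2.95, exact p = 0.0625). The interaction with p25alpha was called for 1 probe set without the fourth condition (p25alpha at 12 h) and 0 with any other left out, and that with time for 0 under each. Depth is not defined for arrays, and signals under the level of present calls, as those of Cyp1a1 in experiment 1, limit fold changes to bounds.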

Other observations

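Heat shock genes, which encode cytosolic chaperones, were called in both directions. Of 20 tested 9 were higher (45%, against 23.4% of all genes) and 6 lower (30%, against 27.5%). Hspa1b, an inducible HSP70, was higher by 1.39 in the fit (adjusted p = 0.00078 in limma), or 2.63-fold. It was dim, present on 0 arrays of experiment 1 and 2 of experiment 2. The HSP90 cochaperones Fkbp4 and Stip1 were lower by 0.97 and 0.76. Of 21 tested interferon and MHC genes 6 rose (28.6%) and 4 fell (19.0%). The antiviral genes Bst2 and Mx1 were dim and higher by 1.22 and 1.07 in the fit. Bst2 was present on 0 arrays of experiment 1 and 4 of experiment 2, and Mx1 on 3 and 4. Cxcl10, a chemokine, was lower by 0.68. Of 12 tested clock genes 4 rose (33.3%) and 2 fell (16.7%). Npas2, a partner of BMAL1, was higher by 1.51 in the fit but dim, at 2.60 to 12.9 in experiment 1 and 13.3 to 21.9 in experiment 2. It was called present on 1 array of experiment 1 and 2 of experiment 2. Per2, a repressor of the clock, was higher by 0.71, while Nfil3 and Nr1d1, repressors of other clock genes, were lower by 1.14 and 0.80. The hours at which the cultures were harvested are not given in the sources used here.

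Growth arrest genes rose in 6 (35.3%, against 23.4% of all genes) and fell in 2 (11.8%, against 27.5%) of 17. Ccng2 and Txnip were higher by 0.76 and 0.68 and Cdkn1a, an inhibitor of cyclin-dependent kinases, was lower by 0.59. Matrix genes rose in 7 (25.9%) and fell in 7 (25.9%) of 27, with Col12a1 higher by 1.155 and Col6a1 and Sparc lower by 0.88 and 0.78. YAP targets rose in 4 (30.8%) and fell in 3 (23.1%) of 13, with Crim1 lower by 1.19. Microtubule genes rose in 4 (23.5%) and fell in 5 (29.4%) of 17. Tubg1, gamma-tubulin, and Dctn1, a dynactin subunit, were lower by 1.10 and 1.06 and the motor Kif5b was higher by 0.66. A dim probe set of Dctn1 was called higher by 0.90 (adjusted p = 0.00162). Of 4 metal-response genes tested, Mt1, a metallothionein, was lower by 1.11. Of 4 tested Schwann markers 1 rose and 1 fell, Pmp22 and Ngfr.

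The older probe sets for the hybridisation spikes were dim on 1 array. On the 8 h p25alpha array of experiment 1 the 3′ probe set of BioC had a signal of 102.3, against 311.5 to 597.1 on the other arrays of that experiment, while the newer probe set for the same spike gave 456.6 there, against 394.4 to 613.1.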
